A study of Mus musculus with 6 samples.

Results

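The secreted Wnt antagonists are proteins that cells release to limit Wnt signalling outside the cell. The 10 genes described here were chosen by name from the 46078 genes listed: Sfrp1, Sfrp2, Sfrp4, Sfrp5, Frzb, Wif1, Dkk1, Dkk2, Dkk3 and Sost. They were measured by bulk RNA sequencing of mouse embryonic growth plates at E18.5, dissected at the knee from the distal end of the femur and the proximal end of the tibia, with 3 control and 3 Idh1 mutant libraries. Idh1 encodes a cytosolic isocitrate dehydrogenase, and mutant forms of it occur in cartilage tumours. Control animals were Idh1 LSL/+, that is, they carried 1 targeted Idh1 allele behind a stop cassette flanked by lox sites. Mutant animals were Col2a1-Cre; Idh1 LSL/+, so both groups held the targeted allele and only the mutants held Cre, and an effect of Cre itself and one of mutant Idh1 cannot be told apart. Cre was driven by Col2a1, which is expressed in chondrocytes and in early skeletal progenitors, and cells of the sample that never expressed it kept the stop cassette. The methods call the controls littermates. Nothing in the labels or methods says whether a library held RNA of 1 animal or of several, so the p-values below measure the spread between these libraries. The text on animal care in the labels gives an age of 2 months, and the stated E18.5 was used.

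Wnt ligands bind Frizzled receptors together with the co-receptors Lrp5 and Lrp6, which stabilises β-catenin and switches on target genes. The Sfrp proteins, Frzb and Wif1 bind the ligands themselves, whereas Dkk1, Dkk2 and sclerostin, the product of Sost, bind the co-receptors. In the growth plate, Wnt signalling takes part in chondrocyte maturation and in the choice between the cartilage and bone fates, and in bone sclerostin is known as a product of osteocytes.

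Between 23445687 and 30415773 reads were counted per library, and 3 counts corresponded to 0.0986 to 0.128 CPM, the counts scaled to the size of the library. Idh1 itself was at 37.3, 39.2 and 65.4 CPM in controls against 47.6, 47.7 and 56.3 CPM in mutants, so the total level of the gene did not separate the groups. Mutant 3 stood apart in Xist, the RNA of the inactive X chromosome, with 26356 counts against at most 13 in each other library. The sex of the animals may therefore differ between mutant 3 and the other libraries, and its part in the results below was not tested. All 9 cartilage markers were detected in every library and their summed level was 3846 to 7825 CPM in controls and 6192 to 8668 CPM in mutants. The libraries also held RNA of other tissues. Skeletal muscle markers summed to 12851 to 18877 CPM in controls and 12229 to 17870 CPM in mutants, and bone markers to 33560 to 48001 CPM and 38276 to 39769 CPM, nearly all of it Col1a1 (33199 to 47781 CPM and 37903 to 39221 CPM), a collagen gene also expressed in tendon and other connective tissue. Of 6 blood markers, 4 were lower in every mutant, beside 7.58% of all genes tested. These 4 were Hba-a1, Hbb-bs and Hbb-bt (globin genes) and Alas2, which encodes an enzyme of haem synthesis in red blood cells. The sum of the list, mostly globin RNA, was 554 to 1589 CPM in controls and 297 to 440 CPM in mutants. The leukocyte gene Ptprc was at 9.52, 6.95 and 7.48 CPM in controls against 9.49, 13.8 and 12.5 CPM in mutants (log2 fold change 0.58, adjusted p = 0.36 in edgeR). The part of blood cells in the results below was not tested.

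Of the 10 antagonists, Sfrp5 was the gene called in the test over all genes, with a mean level 4.53-fold higher in mutants. All 10 genes passed the filter on low counts, 1 was called higher and 0 were called lower at an adjusted p under 0.05 (quasi-likelihood test in edgeR, adjusted by the Benjamini-Hochberg method). Over the 16813 genes tested, 32 were called (0.190%), 9 of them higher (0.0535%) and 23 lower (0.137%). The list is labelled for Sfrp5 and was chosen with earlier results of these data known. The counts in this paragraph therefore describe the list and do not test it. Groups that did not overlap in CPM were seen for 4 of the 10 antagonists, 1 higher and 3 lower in every mutant, against 14.4% of all tested genes (6.85% higher and 7.58% lower). Before adjustment, 5 antagonists had a p under 0.05, of which 3 were lower, beside 1452 of all genes tested (8.64%). The log2 fold changes (mutant over control) were above 0 for 5 genes and below 0 for 5, with a median of 0.02, beside a median of -0.00259 over all genes tested.

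**Figure D1:**
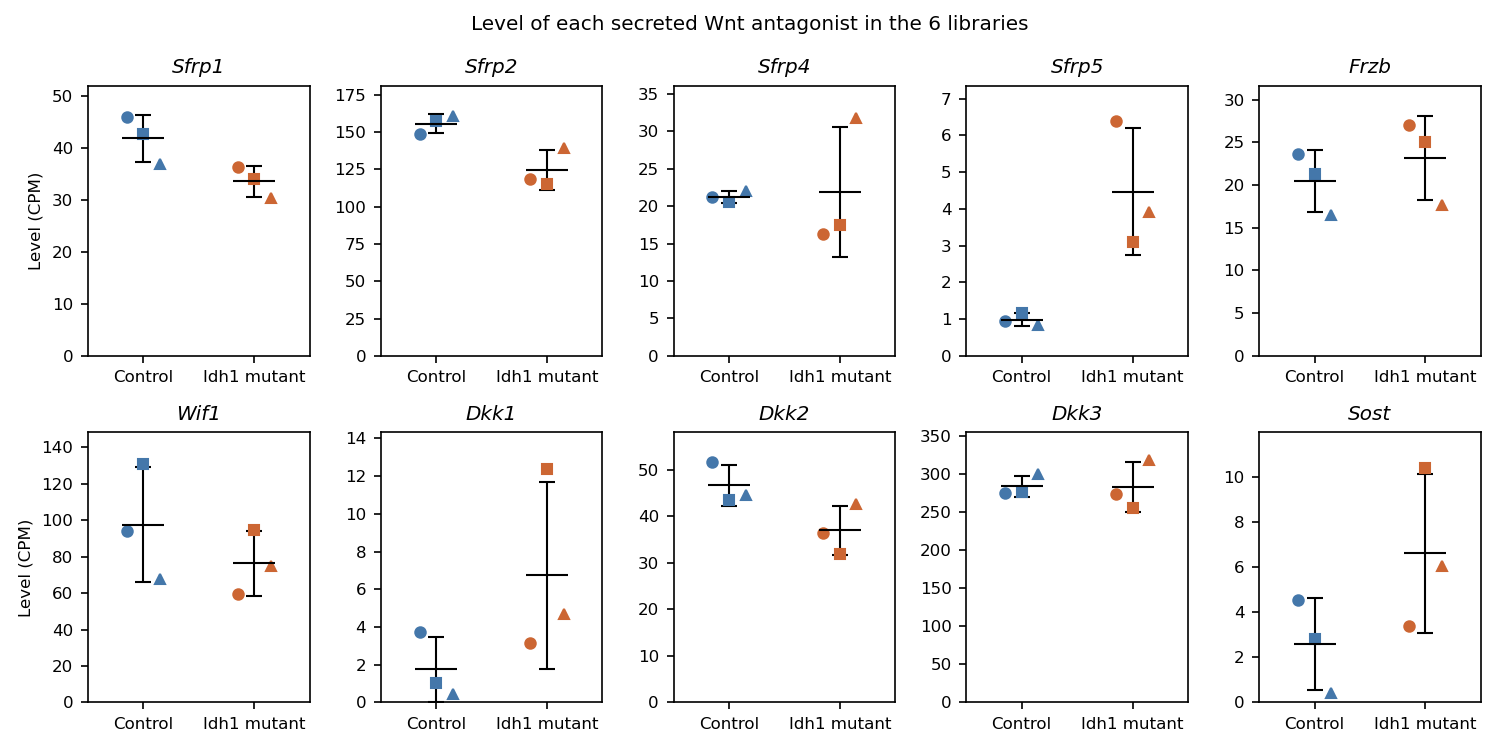
The level of each of the 10 antagonists in CPM (vertical axes start at 0) is plotted for the 3 control (blue) and 3 Idh1 mutant (orange) libraries, with the group mean and SD as bars and replicates 1, 2 and 3 as circle, square and triangle. The 3 mutant points of Sfrp5 lie between 3.09 and 6.40 CPM and the 3 control points between 0.831 and 1.17 CPM, while the points of Dkk1 and Sost spread widely within both genotypes.

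The promoter of Sfrp5 is shown because this was the antagonist that rose in the mutants. That of Sost is shown as 1 of the 2 antagonists, with Dkk1, that varied most between libraries. Dkk1 varied more (26.4-fold against 24.0-fold), and its window, which held a match given below, is not printed. Each line holds the 250 bases before the RefSeq start site in GRCm38.p6, read 5′ to 3′ on the strand of the gene, and the capitals would mark a motif match. The Sfrp5 window lies at chr19:42202253-42202502 on the minus strand and the Sost window at chr11:101967016-101967265 on the minus strand.
Sfrp5: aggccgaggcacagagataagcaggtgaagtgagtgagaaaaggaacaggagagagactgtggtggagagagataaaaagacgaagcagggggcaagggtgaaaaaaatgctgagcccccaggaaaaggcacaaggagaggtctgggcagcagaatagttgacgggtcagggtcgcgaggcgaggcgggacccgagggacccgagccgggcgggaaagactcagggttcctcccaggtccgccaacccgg
Sost: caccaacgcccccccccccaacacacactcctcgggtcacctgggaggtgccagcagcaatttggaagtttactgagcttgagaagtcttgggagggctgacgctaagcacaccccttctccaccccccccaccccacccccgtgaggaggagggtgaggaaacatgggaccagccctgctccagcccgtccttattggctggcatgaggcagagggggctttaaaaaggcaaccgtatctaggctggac

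Windows were found for 7 of the 10 antagonists, namely Sfrp2, Sfrp5, Frzb, Wif1, Dkk1, Dkk2 and Sost. The Sfrp5 window held 59.6% G and C and 13 CpG pairs, and the Sost window 61.2% and 6, beside medians of 52.4% and 6 over 32851 windows of the same length. Both strands were searched for CTTTGAT and CTTTGAA, letters bound by TCF/LEF factors that act with β-catenin, for TGATGNAA (ATF4 with C/EBP), for ACGTG (HIF) and for TGACGTCA (CRE). Neither printed window held any of these letters, so no capitals appear. The 7 windows held CTTTGAA once, in Dkk1, 117 to 111 bases before the start, and ACGTG in Wif1, where the matches on the opposite strands overlap by 4 of their 5 bases. In all windows CTTTGAT was present in 3.21%, CTTTGAA in 4.46%, TGATGNAA in 3.45%, ACGTG in 16.6% and TGACGTCA in 1.55%.

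Sfrp5 (ENSMUSG00000018822, chr19:42197971-42202252 on the minus strand of GRCm38) encodes a secreted protein with a Frizzled-like domain that binds Wnt ligands. Counts of 27, 36 and 23 were recorded in controls against 151, 76 and 114 in mutants, equal to 0.959, 1.17 and 0.831 CPM against 6.40, 3.09 and 3.93 CPM. Every mutant was above every control, and the lowest mutant was more than 2 times the highest control. The means were 0.988 ± 0.174 CPM (SD, n = 3) and 4.47 ± 1.72 CPM (SD, n = 3), and the log2 fold change was 2.17 (SE 0.32, adjusted p = 0.0374 in edgeR). The exact two-sided permutation test gave p = 0.1, the smallest value that 3 against 3 samples allow. The call depended on having all 6 libraries. Without control 1, 2 or 3 the adjusted p in edgeR was 0.102, 0.146 and 0.124, and without mutant 1, 2 or 3 it was 0.11, 0.0606 and 0.108, with log2 fold changes of 1.82 to 2.38. With all 6 libraries the adjusted p was 0.0677 in limma-voom, 1.74e-07 in DESeq2 and 3.14e-06 in edgeR without the filter on low counts.

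The rise of Sfrp5 was also seen against cartilage genes within each library. The ratio of Sfrp5 to each of 9 cartilage markers, among them the collagen gene Col2a1, the aggrecan gene Acan and the transcription factor gene Sox9, was higher in every mutant than in every control for 9 of 9 markers. The mean ratio was 3.05-fold higher for Col2a1 and 5.49-fold higher for Col9a1, the smallest and largest of the 9 differences. All 9 ratios share the same Sfrp5 values and were added after values were seen, so they are not independent of each other or of the call. In a bulk sample, more cells of a type and more RNA per cell cannot be told apart.

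Per length of transcript, Sfrp5 was nonetheless among the least abundant antagonists in both genotypes. Levels per kilobase of exon (RPKM) were 0.520 ± 0.0914 (SD, n = 3) in controls and 2.35 ± 0.906 (SD, n = 3) in mutants. This put it at place 10, 9 and 8 of the 10 genes in controls 1, 2 and 3 and at place 8, 10 and 9 in mutants 1, 2 and 3. Its share of the summed RPKM of the 10 antagonists was 0.189% to 0.246% in controls and 0.759% to 1.66% in mutants.

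The summed level per length of all 10 antagonists did not separate the genotypes. It was 238, 252 and 231 RPKM in controls against 203, 214 and 239.6 RPKM in mutants. Dkk3, Sfrp2 and Wif1 held places 1, 2 and 3 in all 6 libraries and together made up 78.6% to 83.2% of the sum. Computed over the full exon length, Dkk3 and Sfrp2 did not overlap in level in either genotype. They were at 81.9 to 89.3 and 69.0 to 74.6 RPKM in controls and at 75.9 to 95.0 and 53.5 to 64.8 RPKM in mutants. The Sfrp2 length includes 347 exonic bases shared with the antisense gene Gm26771, and reads matching several genes were not counted. The RPKM of Sfrp2 may therefore be too low, so its order against Dkk3 and this lack of overlap may depend on the length used. Wif1 followed at 28.0 to 54.0 RPKM in controls and 24.4 to 38.9 RPKM in mutants. Below these came Dkk2, Sfrp4, Sfrp1 and Frzb, with ranges that overlapped between several neighbours, and then Sost, Dkk1 and Sfrp5, whose ranges overlapped in both genotypes.

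**Figure D2:**
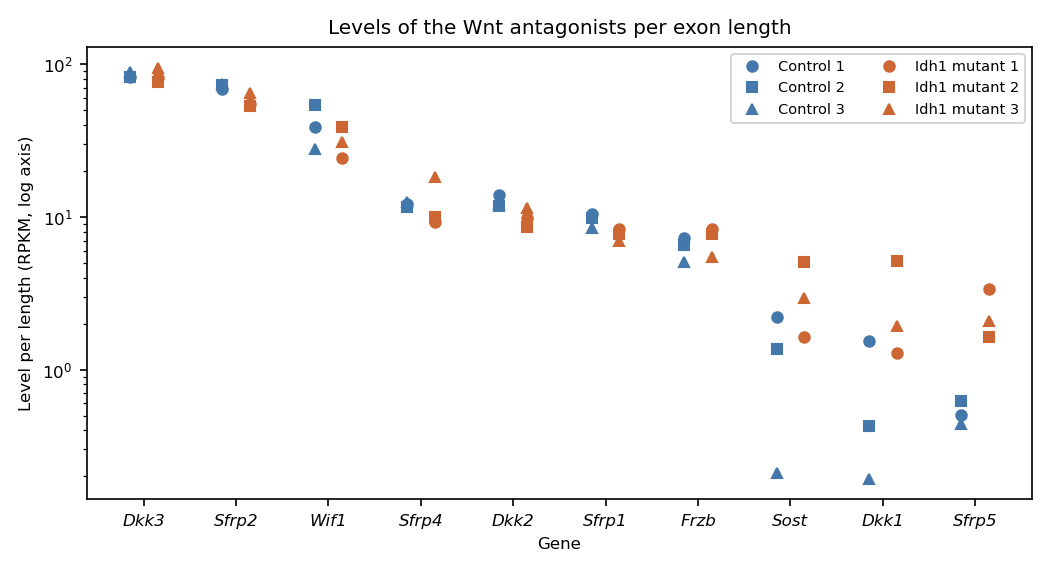
Each antagonist is plotted by its level per length (RPKM, log axis) in the 3 control (blue) and 3 Idh1 mutant (orange) libraries, ordered by the average of the group means. Dkk3, Sfrp2 and Wif1 hold the first 3 places in every library, and Sfrp5 lies between 0.437 and 0.618 RPKM in controls and between 1.63 and 3.37 RPKM in mutants.

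The other genes of the Sfrp family, whose products bind the ligands in the same way, were not called. Sfrp1 (chr8:23411502-23449632, plus strand) was at 45.9, 42.7 and 36.9 CPM in controls against 36.4, 33.9 and 30.4 CPM in mutants. Every mutant was below every control, but the lowest control and the highest mutant were close together, and without the TMM scaling of the libraries the groups overlapped (exact permutation p = 0.2 in place of 0.1). This gave a log2 fold change of -0.32 (SE 0.11, unadjusted p = 0.0141, adjusted p = 0.435 in edgeR).

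Sfrp2 (chr3:83766321-83774316, plus strand), the most abundant Sfrp gene per length, was at 149, 157 and 161 CPM in controls against 119, 115 and 139.5 CPM in mutants. Here too every mutant was below every control, with means of 156 ± 6.24 CPM and 124 ± 13.2 CPM (SD, n = 3 each). In the fit over all genes the log2 fold change was -0.32 (SE 0.09, unadjusted p = 0.00594, adjusted p = 0.325 in edgeR). Sfrp2 shares 347 exonic bases with the antisense gene Gm26771, and since strand was ignored in counting, the reads of that stretch cannot be assigned to one of the pair.

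Sfrp4 (chr13:19623175-19632821, plus strand) was at 21.2, 20.5 and 22.0 CPM in controls against 16.2, 17.5 and 31.8 CPM in mutants. The controls were close together, mutants 1 and 2 lay below them and mutant 3 above them. Its log2 fold change was 0.05 (SE 0.22, adjusted p = 0.978 in edgeR), and without mutant 3 it was -0.33. The same library had the highest level of Dpt, a gene of connective tissue fibroblasts, at 302 CPM against 144 to 216 CPM in the other 5, and the connective tissue list of 6 genes summed to 1310 CPM there, against 1072 to 1178 CPM in controls and 876 and 1052 CPM in mutants 1 and 2. All 6 genes of that list were detected in every library, and their part in the Sfrp4 level was not tested.

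Frzb (chr2:80411970-80447625, minus strand) encodes a related ligand-binding protein known from joint and growth plate cartilage. Its levels were 23.6, 21.3 and 16.5 CPM in controls against 27.0, 25.0 and 17.6 CPM in mutants, which overlap. This gave a log2 fold change of 0.18 (SE 0.18, adjusted p = 0.851 in edgeR). Wif1 (chr10:121033960-121100650, plus strand), which binds ligands through a domain of its own, was at 93.9, 131 and 67.9 CPM in controls against 59.3, 94.5 and 75.0 CPM in mutants. These groups overlapped as well, and the log2 fold change was -0.36 (SE 0.23, adjusted p = 0.731 in edgeR).

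Among the genes whose products act at the co-receptors, Dkk2 was lower in every mutant and Dkk1 and Sost varied widely within each genotype. Dkk2 (chr3:132085292-132180304, plus strand) was at 51.8, 43.7 and 44.7 CPM in controls against 36.5, 31.9 and 42.6 CPM in mutants. The highest mutant lay just below the lowest control. In the fit over all genes the log2 fold change was -0.33 (SE 0.12, unadjusted p = 0.0173, adjusted p = 0.454 in edgeR).

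Tendon markers were lower in the mutants alongside Sfrp1, Sfrp2 and Dkk2. Of 6 markers, 5 were lower in every mutant, beside 7.58% of all tested genes. The 6 together summed to 3208 to 3441 CPM in controls and 2110 to 2472 CPM in mutants. All 6 were detected in every library. Tnmd, which encodes the tendon protein tenomodulin, fell with a log2 fold change of -0.81 (SE 0.12, adjusted p = 0.0374 in edgeR). Divided by Tnmd, the 3 antagonists were higher in every mutant (1.42-fold for Sfrp1, 1.39-fold for Sfrp2 and 1.38-fold for Dkk2), and divided by Scx, a transcription factor gene of tendon, the groups overlapped (1.10-, 1.09- and 1.08-fold). Mean ratios of Sfrp1, Sfrp2 and Dkk2 were 1.36-, 1.37- and 1.34-fold for Fmod and 1.39-, 1.33- and 1.33-fold for Kera. For Mkx they were 1.17-, 1.16- and 1.14-fold. Higher in every mutant were Sfrp1 and Sfrp2 to Fmod, Sfrp2 and Dkk2 to Kera, and Dkk2 to Mkx, and the others overlapped. Thbs4 was the tendon marker that did not fall (log2 fold change 0.02). Divided by Thbs4, Sfrp2 and Dkk2 stayed lower in every mutant (0.791- and 0.777-fold), as in their levels without a ratio. Sfrp1 overlapped in this ratio (0.802-fold), whereas its level without a ratio was lower in every mutant. The part of tendon tissue in these levels was not tested further.

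Dkk3 (chr7:112116019-112159057, minus strand) encodes the divergent member of the Dkk family, which differs from Dkk1 and Dkk2 in its action on the co-receptors. It was at 275, 276 and 299.7 CPM in controls against 274, 255 and 319 CPM in mutants, so the controls lay within the range of the mutants. Its log2 fold change was -0.0046 (SE 0.10, adjusted p = 0.996 in edgeR).

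Dkk1 (chr19:30545863-30549665, minus strand) was at 3.73, 1.04 and 0.470 CPM in controls against 3.14, 12.4 and 4.69 CPM in mutants, from counts of 105, 32 and 13 and of 74, 305 and 136. Control 1 was above mutant 1, and the 6 libraries spanned 26.4-fold (7.94-fold among controls and 3.95-fold among mutants). The log2 fold change of 1.95 (SE 0.67) was close in size to that of Sfrp5, but its adjusted p was 0.447 in edgeR. Sost (chr11:101962458-101967015, minus strand) was at 4.55, 2.81 and 0.434 CPM in controls against 3.39, 10.4 and 6.06 CPM in mutants, from counts of 128, 86 and 12 and of 80, 256 and 176. The groups overlapped in the same libraries, the span was 24.0-fold, and the log2 fold change was 1.35 (SE 0.61, adjusted p = 0.584 in edgeR). In the fit without a filter on low counts, both genes passed the threshold (adjusted p = 0.00183 for Dkk1 and 0.039 for Sost in edgeR), with log2 fold changes of 1.94 and 1.34. Without each library in turn, the log2 fold change in edgeR ran from 1.17 to 3.13 for Dkk1 and from 0.85 to 2.01 for Sost.

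Dkk1 and Sost followed the same order over the 6 libraries, from control 3 at the lowest through control 2, mutant 1, control 1 and mutant 3 to mutant 2 at the highest. On log2 CPM, Pearson's r was 0.934 (exact permutation p = 0.00139, adjusted p = 0.0625 over the 45 pairs of antagonists) and Spearman's rho was 1 (exact permutation p = 0.00278, adjusted p = 0.125). Without control 3 and mutant 2, r was 0.864 over 4 libraries, and neither value passed the adjustment.

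Osteocyte genes varied over the libraries in a similar way. Dmp1, which encodes a matrix protein of osteocytes, was at 82.9, 21.4 and 6.76 CPM in controls against 84.5, 198 and 90.8 CPM in mutants, with control 3 lowest and mutant 2 highest. Its log2 fold change was 1.75 (adjusted p = 0.522 in edgeR). The ratio of Dkk1 to Dmp1 was 0.045, 0.0489 and 0.0695 in controls against 0.0371, 0.0625 and 0.0516 in the mutants, a span of 1.87-fold with overlapping groups. The ratio of Sost to Dmp1 also overlapped and spanned 3.27-fold. Dmp1 was picked after the values were seen, as the marker against which both genes varied least. Against Phex and Bglap, the Dkk1 ratio was higher in every mutant (2.69- and 3.38-fold), and against Sp7, Ifitm5, Alpl and Col1a1 its mean was 3.24- to 3.44-fold higher with overlapping groups. The Sost ratio to these 6 genes was 1.72- to 2.36-fold higher in mean, without overlap for Bglap alone, a gene counted at no more than 1.75 CPM. Against Mepe, both mean ratios were lower in mutants (0.746- and 0.632-fold) and the groups overlapped. All 8 genes of the bone list were detected in every library. All 8 had a log2 fold change above 0, beside 49.3% of all genes tested. In edgeR 0 of the 8 were called and 1 had an unadjusted p under 0.05, beside 0.190% and 8.64% of all genes tested. The summed level of the list is that of Col1a1 (given above) and carries little of the osteocyte genes, and the part of bone tissue in the levels of Dkk1 and Sost was not tested further.

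**Figure D3:**
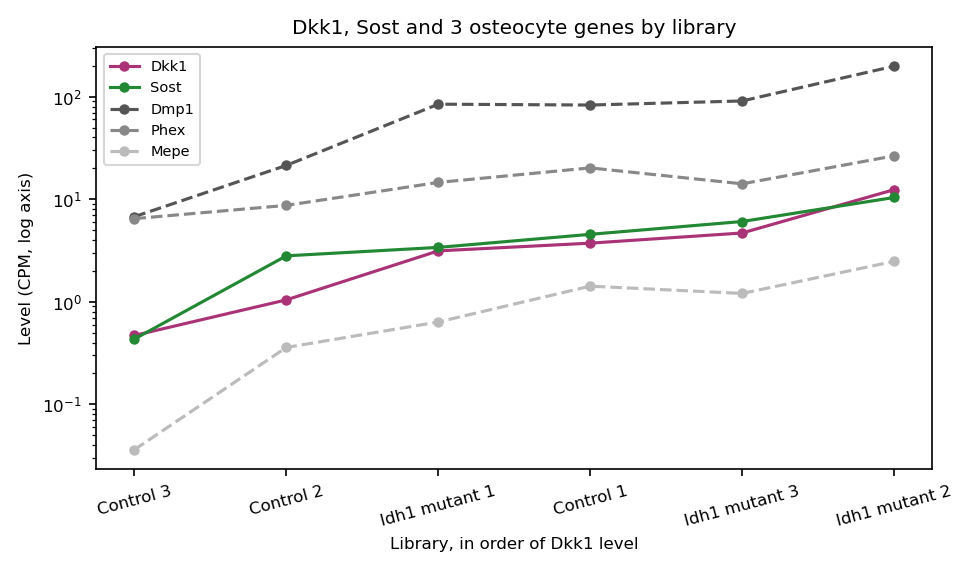
The levels of Dkk1, Sost and the osteocyte genes Dmp1, Phex and Mepe (CPM, log axis) are plotted by library in order of the Dkk1 level. All 5 genes are lowest in control 3 and highest in mutant 2, and mutant 1 and control 1 lie next to each other in the middle of the order.

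The genes through which these antagonists act showed small differences. Of 5 receptors of the Dkk proteins and sclerostin, 4 were tested and 0 were called in edgeR, with 0 at an unadjusted p under 0.05. The log2 fold changes were -0.13 for Lrp5, -0.09 for Lrp6, 0.11 for Lrp4, which binds sclerostin, and -0.10 for Kremen1, which binds Dkk1. Of 11 other inhibitors, secreted or of the cell membrane, 7 were tested and 0 were called in edgeR, again with 0 at an unadjusted p under 0.05. All 7 had a log2 fold change below 0, with a median of -0.193, while 49.3% of all genes tested were above 0. Among the 7 were Igfbp4 (-0.09), Apcdd1 (-0.19), Znrf3 (-0.05) and Tpbg (-0.23). Dkk4, the remaining Dkk gene, had 0 counts in all 6 libraries, each of which allows up to 3 counts.

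Among the ligands that the antagonists bind, Wnt4 fell. Of 19 Wnt genes, 12 were tested, 0 were called higher and 1 was called lower, beside 0.0535% and 0.137% of all genes tested. Of the 12, 10 had a log2 fold change below 0, and the median was -0.213. Over all genes tested, 49.3% had a log2 fold change above 0. Wnt4 was at 22.8, 22.6 and 24.5 CPM in controls against 16.2, 14.9 and 15.4 CPM in mutants, without overlap, and its log2 fold change was -0.59 (SE 0.09, adjusted p = 0.0444 in edgeR). The other 4 most abundant ligands were not called, with -0.17 for Wnt5a, -0.11 for Wnt9a, 0.09 for Wnt11 and -0.22 for Wnt5b. At an unadjusted p under 0.05 in edgeR, 3 ligands were lower and 0 higher, beside 8.64% of all genes tested. These 3 were Wnt4, Wnt7b (-0.81) and Wnt2b (-0.59), each lower in every mutant. All 19 ligands summed to 173 to 188 CPM in controls and 156 to 169 CPM in mutants.

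Among the ligand receptors, Fzd1 fell. All 13 genes for Frizzled, Ror and Ryk receptors were tested. Of these, 0 were called higher and 1 was called lower, beside 0.0535% and 0.137% of all genes tested. The log2 fold change was below 0 for 10 of the 13, with a median of -0.10, while 49.3% of all genes tested were above 0. Fzd1 was at 48.2, 53.5 and 57.8 CPM in controls against 35.4, 35.9 and 34.0 CPM in mutants, again without overlap, with a log2 fold change of -0.60 (SE 0.09, adjusted p = 0.0374 in edgeR). Ryk (-0.05), Fzd2 (-0.22), Fzd7 (-0.25) and Fzd8 (-0.10) were not called. At an unadjusted p under 0.05 in edgeR, 3 were lower (Fzd1, Fzd2 and Fzd7) and 0 higher, beside 8.64% of all genes tested. The 13 receptor genes summed to 614 to 665 CPM in controls and 570 to 583 CPM in mutants. Neither Wnt4 nor Fzd1 was called once any of the 6 libraries was left out, where 0 of these other Wnt pathway genes passed the threshold.

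Of 7 genes for R-spondins, which strengthen Wnt signalling, and their Lgr receptors, 5 were tested and 0 were called in edgeR. Of these 5, 2 were lower at an unadjusted p under 0.05, beside 8.64% of all genes tested, and the median log2 fold change was -0.409. Their log2 fold changes were 0.06 for Lgr4, 0.00 for Rspo2, -0.43 for Lgr6 and -0.50 for Rspo3. Of 16 target genes of β-catenin, 14 were tested and 0 were called in edgeR. At an unadjusted p under 0.05, 3 were lower and 0 higher, beside 8.64% of all genes tested. These 3 were Nkd2 (log2 fold change -0.52), Lgr5 (-0.41) and Tnfrsf19 (-0.32). Of the 14, 4 were lower in every mutant and 0 higher in every mutant, beside 7.58% and 6.85% of all tested genes. The list summed to 465 to 509 CPM in controls and 414 to 439 CPM in mutants. Log2 fold changes were below 0 for 13 of the 14 and above 0 for Bambi, and the median was -0.185. Over all genes tested, 49.3% had a log2 fold change above 0. Ccnd1, which encodes cyclin D1, was at 150.2, 144 and 151 CPM in controls against 116, 136 and 143 CPM in mutants (log2 fold change -0.18, adjusted p = 0.653 in edgeR). Twist1 (-0.25), Apcdd1 (-0.19) and Myc (-0.01) were not called either, nor was Axin2 (-0.18), a widely used readout of the pathway that was picked after its value was seen. Notum, Znrf3, Rnf43, Apcdd1 and Lgr5 stand in more than 1 of these lists.

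**Figure D4:**
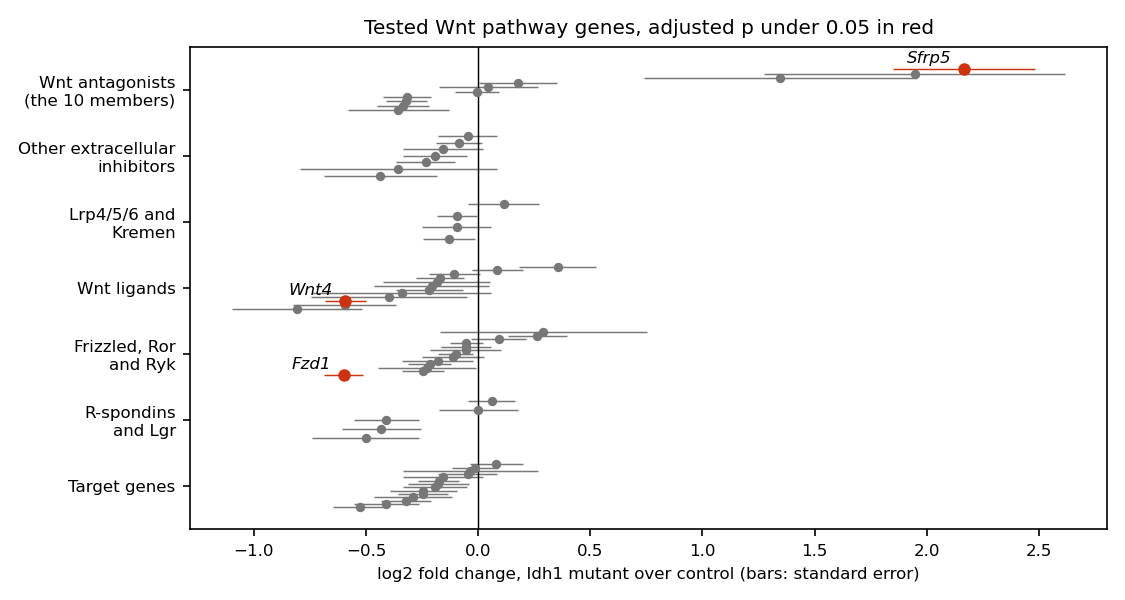
The log2 fold change (Idh1 mutant over control) of each tested Wnt pathway gene is plotted by list, with its standard error as a bar and called genes in red. Sfrp5 at 2.17 lies to the right of 0, Wnt4 at -0.59 and Fzd1 at -0.60 lie to the left, and most other genes lie below 0 by less than 0.5.

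The genes whose levels ran most like that of Sfrp5 over the 6 libraries, by Pearson's r on log2 CPM, were Fam149b (0.990), Gle1 (0.988), Tmem140 (0.984), Chd1l (0.982) and 8030451A03Rik (0.981). The libraries fall into genotype groups for Sfrp5, so these values are a description of that shared split. All 5 were higher in every mutant, by far smaller amounts than Sfrp5, with log2 fold changes of 0.11 for Gle1 to 0.56 for 8030451A03Rik and adjusted p of 0.444 to 0.741 in edgeR.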

How the data were processed

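RNA was purified from growth plate cartilage, and strand-specific libraries were prepared from poly(A) RNA. The authors trimmed the reads (Trim Galore 0.6.4), mapped them to GRCm38 with STAR 2.6.1d and counted them per gene with featureCounts 1.6.4, ignoring strand and without reads that matched several places or genes. Raw counts per gene were deposited by the authors, with the exon length in bases as the authors' other column. From these counts, edgeR 4.0.16 (R 4.3.3) was run with filterByExpr (minimum count 10, minimum total count 15), TMM factors and a quasi-likelihood test of genotype, adjusted by Benjamini-Hochberg over 16813 genes (threshold 0.05). The functions were tested on simulated counts. CPM used the filtered library size times the TMM factor, and RPKM the exon length. The 45 pairs of antagonists and single levels were tested by exact permutation (scipy 1.17.1). Gene coordinates came from GENCODE and promoters from RefSeq (both GRCm38). Groups followed the genotype labels, with 3 libraries each.

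The antagonists and all gene lists were chosen with earlier results of these data known. Text names all 10 antagonists, called genes and up to 4 most abundant others of each pathway list, and the 5 genes most like Sfrp5. It also names Axin2 and the Wnt ligands, Frizzled receptors and β-catenin target genes with an unadjusted p under 0.05 in edgeR. Alternatives were DESeq2 1.42.0, limma-voom (limma 3.58.1), a replicate block, upper-quartile factors, no filter, at least 10 counts in every library, CPM without TMM factors, and each library left out. Ratios to marker genes, and the alternatives for the other pathway genes, were added after values were seen. The study's own fit used litter as a term, and the labels name no litters.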

Additional observations from a re-analysis of the deposited data

How the results depend on the processing

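Over 13 alternatives Sfrp5 stayed higher in the mutants (log2 fold change 1.82 to 2.38), with an adjusted p of 1.74e-07 (DESeq2) to 0.146 (edgeR without control 2). Its call was lost in limma-voom (log2 fold change 2.09, adjusted p = 0.0677) and without any single library (1.82 to 2.38, adjusted p = 0.0606 to 0.146 in edgeR). The genes called, 32 over all genes, became 193 in DESeq2, 19 in limma-voom, 259 without the filter on low counts and 3 to 17 without each library. The antagonists called, 1 in edgeR, became 0 in limma-voom, 3 without the filter (Sfrp5, Dkk1 and Sost) and 0 without each library. Of the other Wnt pathway genes, 2 were called in edgeR, 3 in DESeq2, 3 without the filter, 1 with upper-quartile factors, 1 with the stricter filter, 0 in limma-voom and 0 without each library. With the replicate number as a block, edgeR called 3 genes, 0 antagonists (Sfrp5 at a log2 fold change of 2.12, adjusted p = 0.136) and 0 other pathway genes, and DESeq2 called 96 genes, 1 antagonist (Sfrp5 at 2.12, adjusted p = 5.92e-05) and 1 other pathway gene. The numbers do not mark shared animals or litters in the labels, same-numbered libraries had correlations of -0.127 to 0.007 in their deviations from the group means, and 0 of 6 libraries correlated best with their own number, so this pairing rests on a number alone. Sfrp4 turned to a log2 fold change of -0.021 with the replicate block in edgeR, -0.026 with it in DESeq2, -0.00087 in limma-voom and -0.33 without mutant 3 (range -0.33 to 0.22 without each library). Dkk3 turned to 0.0078 with upper-quartile factors and ranged from -0.101 to 0.070 without each library, and its difference of mean CPM, -0.936, was 1.01 without TMM factors. Sfrp1 overlapped between the groups without TMM factors. Of 117 results of the 9 other antagonists, 107 stayed on the same side of 0 and of the threshold, 8 turned direction and 2 passed the threshold. Ordered by CPM rather than per length, 4 antagonists took another place. Where a value changed, the cause was not tested. Sfrp5, Dkk1 and Sost had as few as 23, 13 and 12 counts in a library.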

Other observations

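For each antagonist, the marker gene was sought, among 67 markers of the tissues in the sample, to which its ratio varied least over the 6 libraries. These pairs were picked after the values were seen and carry no test. Dkk1 and Sost varied least against Dmp1, with the SD of the log2 level going from 1.67 to 0.326 and from 1.57 to 0.577. Sfrp4 varied least against Dpt, and its span over the libraries went from 1.96-fold to 1.34-fold. Wif1 varied least against Erg, a transcription factor gene of joint cartilage (0.41 to 0.239), Frzb against Sp7, which encodes the osteoblast factor osterix (0.284 to 0.192), and Sfrp1 against Pth1r, the receptor gene for parathyroid hormone-related peptide (0.216 to 0.116). Sfrp2 and Dkk2 both varied least against the tendon transcription factor gene Mkx (0.205 to 0.163 and 0.244 to 0.127), and Dkk3 against Thbs4 (0.114 to 0.0633). For Sfrp5 the lowest value was against Col2a1 (1.22 to 0.93), the highest SD that was left for any of the 10 genes.

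Joint surface markers, a list of 6 with Prg4 (lubricin) and Erg, summed to 495 to 689 CPM in controls and 404 to 436 CPM in mutants. Resting zone markers summed to 121 to 193 CPM and 90.6 to 126 CPM, and prehypertrophic and hypertrophic markers to 428 to 661 CPM and 450 to 588 CPM, and both overlapped between genotypes. None of these 17 genes was called in edgeR, and 5 of them had an unadjusted p under 0.05, beside 8.64% of all genes tested. All 5 were lower in mutants, namely Pthlh, Ucma and Clu of the resting zone and Prg4 and Abi3bp of the joint surface. Pthlh had a log2 fold change of -1.26 (adjusted p = 0.0591 in edgeR) and was lower in every mutant.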
